A study of Mus musculus with 23 samples.

Results

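The 51 genes described here encode the enzymes that make and use glutathione, the peroxidases and the thioredoxin system, out of 24411 gene symbols in the count table. They were taken by name: the cytosolic and kappa glutathione S-transferases (Gst), the microsomal transferases (Mgst), the glutathione peroxidases (Gpx), the peroxiredoxins (Prdx), the superoxide dismutases (Sod), the glutaredoxins (Glrx), and Gsr, Gss, Ggct, Cat, Txn1, Txn2 and Txnrd2. RNA was sequenced from ACSA-2-positive cells, an antigen on the astrocyte surface, captured with magnetic beads from the cerebral cortex of male mice at postnatal day 70. All mice carried Aldh7a1 flox/flox. The ConAstro group (n = 4 libraries) lacked Cre, and the cKOAstro group (n = 7) also carried Slc1a3 CreER/+, a tamoxifen-inducible Cre at the gene of the astrocyte glutamate transporter GLAST, so that 1 copy of Slc1a3 is altered in these mice and Cre is not limited to cortex. 4-hydroxytamoxifen was injected at postnatal days 3 and 4. A diet with sulforaphane (SFN) was given from postnatal day 21 to the SFN-fed mice, of which 5 were ConAstro and 7 were cKOAstro. The comparisons ask whether loss of the aldehyde dehydrogenase ALDH7A1 in astrocytes, the SFN diet, or both went with a change in these transcripts.

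Glutathione is a small thiol that cells keep mostly reduced. Gss carries out the last step of its synthesis, Gsr returns its oxidised form to the reduced one with NADPH, and the transferases join it to electrophiles. Superoxide dismutases turn superoxide into hydrogen peroxide, which catalase, glutathione peroxidases and peroxiredoxins remove, and thioredoxins and glutaredoxins reduce protein disulfides. Many of these genes are known targets of NRF2, a transcription factor that is held by KEAP1 and released by electrophiles such as SFN, and that binds the antioxidant response element. Astrocytes are known as the main source of glutathione precursors for neurons.

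The core of that element was searched as TGACNNNGC on both strands of the RefSeq promoter windows (GRCm38.p6), which run from 250 bases before to 50 bases after each gene's start. Windows were given for 46 members and not for Gsr, Gsta4, Gstt2, Prdx6 and Sod3. The core was found in 7 of the 46 (15.22%), against 2580 of 17224 genes of the count table (14.98%) and 9 of 22 other enzymes and regulators of the NRF2 pathway (40.91%). The matches are shown because they are the stretches on which NRF2 could act by this motif. Each line is written 5′ to 3′ on the gene's strand, with the match in capitals and 20 bases on either side.
Ggct, chr6:54993013-54993061, minus strand: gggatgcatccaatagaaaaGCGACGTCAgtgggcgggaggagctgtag
Ggct, chr6:54992834-54992882, minus strand: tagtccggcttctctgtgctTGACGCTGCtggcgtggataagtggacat
Gsta3, chr1:21240444-21240492, plus strand: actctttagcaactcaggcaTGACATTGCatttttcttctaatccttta
Gstm5, chr3:107895792-107895840, plus strand: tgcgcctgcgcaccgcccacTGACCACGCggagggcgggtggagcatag
Gstm7, chr3:107931715-107931763, minus strand: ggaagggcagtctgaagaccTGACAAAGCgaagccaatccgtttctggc
Mgst1, chr6:138140451-138140499, plus strand: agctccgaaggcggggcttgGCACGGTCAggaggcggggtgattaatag
Prdx1, chr4:116685446-116685494, plus strand: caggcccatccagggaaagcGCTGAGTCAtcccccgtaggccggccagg
Sod1, chr16:90220686-90220734, plus strand: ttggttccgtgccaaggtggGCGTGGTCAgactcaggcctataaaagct
The matches lay in families that differ in role, and a match is a description of letters and not a bound site.

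Total counts lay between 46890715 and 391701247 per library, with cKOAstro between 107847897 and 391701247 and no other library above 219904257. The targeted gene, Aldh7a1, stood at 43.0 to 77.2 CPM (TMM-normalised counts scaled to library size) in the libraries labelled cKO and at 177 to 226 CPM in those labelled Con, with 2 exceptions. In SFN-fed ConAstro, the library labelled replicate 1 had 55.7 CPM, and in SFN-fed cKOAstro, that labelled replicate 2 had 222 CPM, each the level of the other genotype. Counts and named members in comparisons that hold either or both are therefore given with and without them. The summed CPM of 12 astrocyte markers lay between 19207 and 34012, and that of 10 oligodendrocyte markers between 22226 and 57490, so RNA of oligodendrocytes was abundant in every library. In such bulk samples, fewer cells of a type and less RNA per cell cannot be told apart. The highest oligodendrocyte sum, in SFN-fed cKOAstro replicate 4, stood beside the lowest astrocyte sum. Library names start with Astro for 2 cKOAstro libraries and, among SFN-fed mice, for 1 ConAstro and 3 cKOAstro libraries, and with a number for the rest. The numbers start with 143 in ConAstro and with 141 or 146 in cKOAstro. Among SFN-fed mice they start with 145 or 147 in ConAstro and with 143 or 147 in cKOAstro. What the name series stands for is not given in the sources used here. No start of a name is shared between ConAstro and cKOAstro, or between ConAstro and SFN-fed ConAstro.

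The transferases of the mu class led the levels. Compared per kb of exon in ConAstro, Gstm1 stood at 343 ± 27.3 CPM per kb (SD, n = 4), Gstm5 at 193 ± 11.9, the peroxiredoxin Prdx6 at 145 ± 12 and Gstp1, the pi class transferase, at 105 ± 10.4. The selenoenzyme Gpx4, which reduces lipid hydroperoxides, followed at 86.8 ± 9.28 CPM per kb and Prdx1 at 85.7 ± 1.52. Gstm1, Gstm5 and Gstp1 made up 83.9% of the summed level of the Gst genes per kb in ConAstro, and 84.2% ± 1.23 in cKOAstro (n = 7). On the SFN diet the share was 83.9% ± 0.846 in ConAstro (n = 5) and 84.3% ± 1.58 in cKOAstro (n = 7). The same few transferases therefore held the bulk of the family in each group.

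Catalase, which splits hydrogen peroxide, came next at 54.3 ± 5.81 CPM per kb, with Sod3, Sod1, Prdx2, Prdx5, Txn1 and Gsta4 at 34.2 to 46.2. In all, 24 members stood above 10 CPM per kb, 13 between 1 and 10, and 14 at or under 1. The lowest were Gstm3, Gstt4, Mgst2, Gsta1, Gpx2, Gsta2, Gpx5 and Gpx6. Gpx5 had no count in 20 libraries and Gpx6 in 19. In these libraries this allows up to 0.0077 to 0.0641 CPM of Gpx5 and 0.0112 to 0.0641 CPM of Gpx6. These bounds stand for 3 counts, for counting error only, since reads carry no molecular identifiers. Of the 50 neighbouring pairs in this order, 39 had ranges over the 4 libraries that overlapped, so most neighbours cannot be ranked. The filter on low counts over 4 groups kept 45 members and left out Gstt4, Gsta1, Gpx2, Gsta2, Gpx5 and Gpx6. Within groups, the SD of log2 CPM had a median of 0.19 over the 45 members and 0.22 over 17302 genes, with the mitochondrial Sod2 at 0.09 and the secreted Gpx3 at 0.52.

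**Figure D1:**
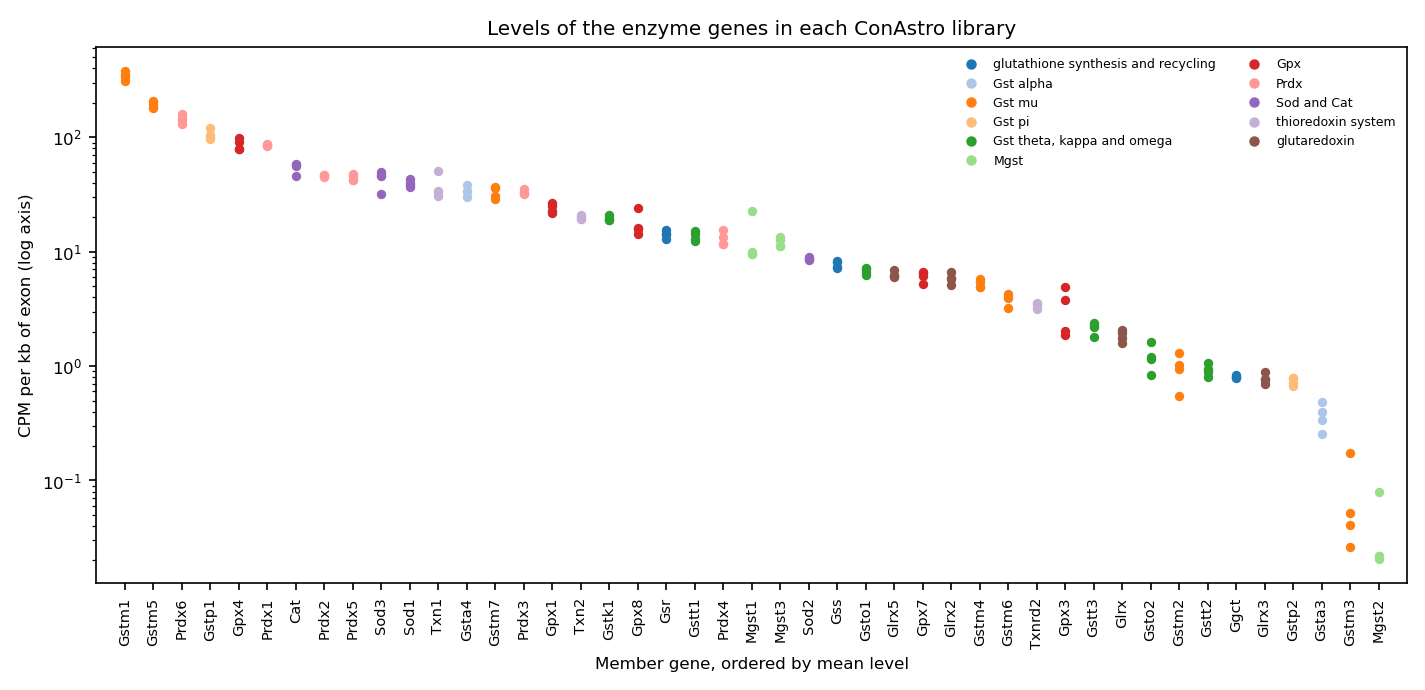
CPM per kb of exon (log axis) of the 45 members past the filter, one point per ConAstro library (n = 4), coloured by family. Gstm1 and Gstm5 stand highest, and Mgst1, Gpx8 and Txn1 each have a library well above the rest.

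Some levels are uncertain because members resemble other genes. Of the 100-base windows of exon sequence, 38.4% in Gstp1 were shared with Gstp2 or Gstp-ps and 40.8% in Gpx4 with the pseudogene Gpx4-ps2, and 81.8% of those in Gsta1 were shared with other genes. Exons of Gss, Gstm5, Prdx2, Prdx5 and Txnrd2 overlap genes on the opposite strand, and whether counting used the strand is not stated.

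The control-diet comparison of cKOAstro with ConAstro called no member. These groups share no start of a library name, so name and genotype cannot be told apart here. By edgeR's quasi-likelihood test with Benjamini-Hochberg adjustment over 17406 genes, 0 of 45 members tested passed an adjusted p of 0.05 (0.0230% of all genes did), 0 passed an unadjusted p of 0.05 (3.74% of all genes), and the lowest adjusted p was 0.981. DESeq2 and limma-voom with sample quality weights called none either. The point estimate was above 0 for 34 members, against 47.6% of all genes, and the median log2 fold change was 0.05, against -0.01.

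The 4 members with the lowest p show how small these differences were. Gstm4, a mu class transferase (chr3:108040408-108044894), stood at 9.32, 8.36, 9.83 and 8.47 CPM in ConAstro and at 9.34 to 10.5 CPM (median 10) in cKOAstro. The groups overlapped, and the log2 fold change was 0.14 ± 0.08 (SE), with a 95% interval of -0.03 to 0.31 (edgeR adjusted p = 0.981). The theta class Gstt2 stood at 3.92, 3.68, 4.41 and 3.36 CPM and at 3.66 to 6.54 (median 4.48), a log2 fold change of 0.29 ± 0.17. Its highest library was cKOAstro replicate 2. Gss, glutathione synthetase, stood at 48.4, 49.2, 43.6 and 42.3 CPM against 38.0 to 46.5 (median 43.4), with a log2 fold change of -0.09 ± 0.06, and -0.05 without ConAstro replicate 2. Gsto1, an omega class transferase that also reduces dehydroascorbate, stood at 14.4, 13.3, 12.7 and 14.7 CPM against 12.6 to 17.4 (median 15.6), a log2 fold change of 0.12 ± 0.09. Both pairs of groups overlapped.

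The members that lead their families also overlapped between these groups. Gstm1 stood at 512, 496, 459 and 556 CPM in ConAstro and at 426 to 637 (median 557) in cKOAstro. Prdx6, a peroxidase of phospholipids, stood at 707, 677, 628 and 766 CPM and at 612 to 877 (median 772). Of the 45 intervals, 43 lay within a 2-fold change in either direction and 40 within 1.5-fold, with the low-count Gstm3 and Mgst2 outside. Without ConAstro replicate 3, 6 members passed an unadjusted p of 0.05 and none an adjusted one. The share of all genes under an unadjusted p of 0.05 without this library was not counted. In that library Mgst1, a membrane transferase, stood at 45.8 CPM against 20.1, 19.4 and 19.3 in the other ConAstro libraries, Txn1, cytosolic thioredoxin, at 53.4 against 32.2 to 35.5, and Cat at 119 against 147 to 151. Its ependymal marker sum of 713 CPM lay above those of the other ConAstro libraries, and the part of this in these values was not tested.

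On the SFN diet, more members and more of all genes had a low unadjusted p between the genotypes. No member passed an adjusted p of 0.05 (0% of 16672 genes did). At an unadjusted p of 0.05, 12 of 44 members tested were higher in SFN-fed cKOAstro (11.4% of all genes were) and 1 was lower (8.89% of all genes), against 20.3% of genes in either direction. DESeq2 called none, and limma-voom with sample quality weights called 8 at an adjusted p of 0.05, beside 26.4% of all genes. The median log2 fold change of the 44 members was 0.15, against 0.01 for all genes, and 35 were above 0, against 51.2%. Without the 2 libraries that go against their label, 6 of 44 passed, all higher, against 9.01% of genes higher, and the median was 0.14. Marker sums of other cell types also differed between these groups, and those of microglia differed widely within SFN-fed cKOAstro. The summed CPM of 10 microglia markers was 932 to 2906 (median 1886) in SFN-fed ConAstro and 320 to 3394 (median 562) in SFN-fed cKOAstro, and that of 9 endothelial markers 520 to 843 (median 593) and 186 to 851 (median 293). That of 8 mural markers was 1309 to 2075 (median 1754) and 756 to 1809 (median 1211), and that of the oligodendrocyte markers 22226 to 31169 (median 29915) and 24642 to 57490 (median 33639). Their part in the result was not tested.

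By family, and beside 51.2% of all genes above 0 and 11.4% higher at an unadjusted p under 0.05, all 6 peroxiredoxins had log2 fold changes above 0 (0.10 to 0.23, 3 of them at an unadjusted p under 0.05), as did all 3 genes of the thioredoxin system (0.17 to 0.23, 2 under 0.05) and all 4 glutaredoxins (0.02 to 0.29, 1 under 0.05). Among the 5 glutathione peroxidases tested, 2 were above 0 (range -0.19 to 0.24). The mu class ran from -0.62 to 0.48. The superoxide dismutases and Cat split. Mean CPM in SFN-fed cKOAstro was higher for Sod1 (181 against 149) and Sod2 (89.1 against 82.9), and lower for Sod3 (156 against 177) and Cat (140 against 157). These directions were the same without the 2 discordant libraries. Without those libraries the 13 peroxiredoxins, thioredoxin system genes and glutaredoxins were also still above 0. The share of all genes above 0 without those libraries is not given here. Only 1 of the 6 peroxiredoxins (Prdx5), 0 of the 3 thioredoxin genes and 1 of the 4 glutaredoxins (Glrx5) were then under 0.05.

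Glrx5, a mitochondrial glutaredoxin that takes part in iron-sulfur cluster assembly (chr12:105032688-105042906), had the lowest p. It stood at 24.7, 22.5, 24.2, 21.7 and 19.8 CPM in SFN-fed ConAstro and at 24.3 to 34.8 (median 26.9) in SFN-fed cKOAstro. The groups overlapped only through replicate 1 of SFN-fed ConAstro, one of the libraries against its label. The log2 fold change was 0.29 ± 0.09, with a 95% interval of 0.10 to 0.49 (edgeR adjusted p = 0.195), and it was 0.32 without the 2 discordant libraries.

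Gstm6 stood at 7.32, 6.43, 7.37, 7.67 and 6.83 CPM against 7.10 to 12.7 (median 10.2), a log2 fold change of 0.48 ± 0.16. Its 4 highest libraries were SFN-fed cKOAstro replicates 2, 4, 5 and 6, of which 3 have the Astro name and replicate 2 goes against its label, and with numbered libraries alone the value was 0.30. It was 0.43 without the 2 discordant libraries. The 0.30 still holds replicate 2 and the 0.43 the 3 Astro libraries, and Gstm6 was not tested with both left out. Of the remaining SFN-fed cKOAstro libraries, replicates 3 and 7 (7.56 and 7.10 CPM) lay within the SFN-fed ConAstro range. Replicate 1 lay above it. In cKOAstro, Astro replicates 2 and 4 stood at 10.3 and 10.1 CPM, against 6.64 to 8.11 in the others. The Astro library of SFN-fed ConAstro stood at 7.32 CPM. Gstm2, at 2.71, 2.80, 2.35, 2.33 and 1.71 CPM against 1.01 to 2.32 (median 1.58), was the member lower, with a log2 fold change of -0.62 ± 0.22. That value was -0.50 without the 2 discordant libraries, and no longer under an unadjusted p of 0.05. The members of this cluster of mu genes on chromosome 3 thus did not share a direction.

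Prdx4, the peroxiredoxin of the endoplasmic reticulum, stood at 26.2, 29.7, 27.1, 26.4 and 26.1 CPM against 24.9 to 35.7 (median 32.9), a log2 fold change of 0.23 ± 0.08. It was 0.20, and not under an unadjusted p of 0.05, without those 2 libraries. Sod1, the cytosolic copper-zinc dismutase, stood at 159, 153, 158, 147 and 129 CPM against 161 to 234 (median 168). Sod1 was the only one of the 44 whose groups did not overlap, against 0.864% of all genes in the same direction, and its log2 fold change was 0.27 ± 0.10 (edgeR adjusted p = 0.196), or 0.29 without the 2 discordant libraries. Without the 2 discordant libraries Glrx5, Sod1 and Prdx5 did not overlap, against 3.15% of genes higher without overlap.

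**Figure D2:**
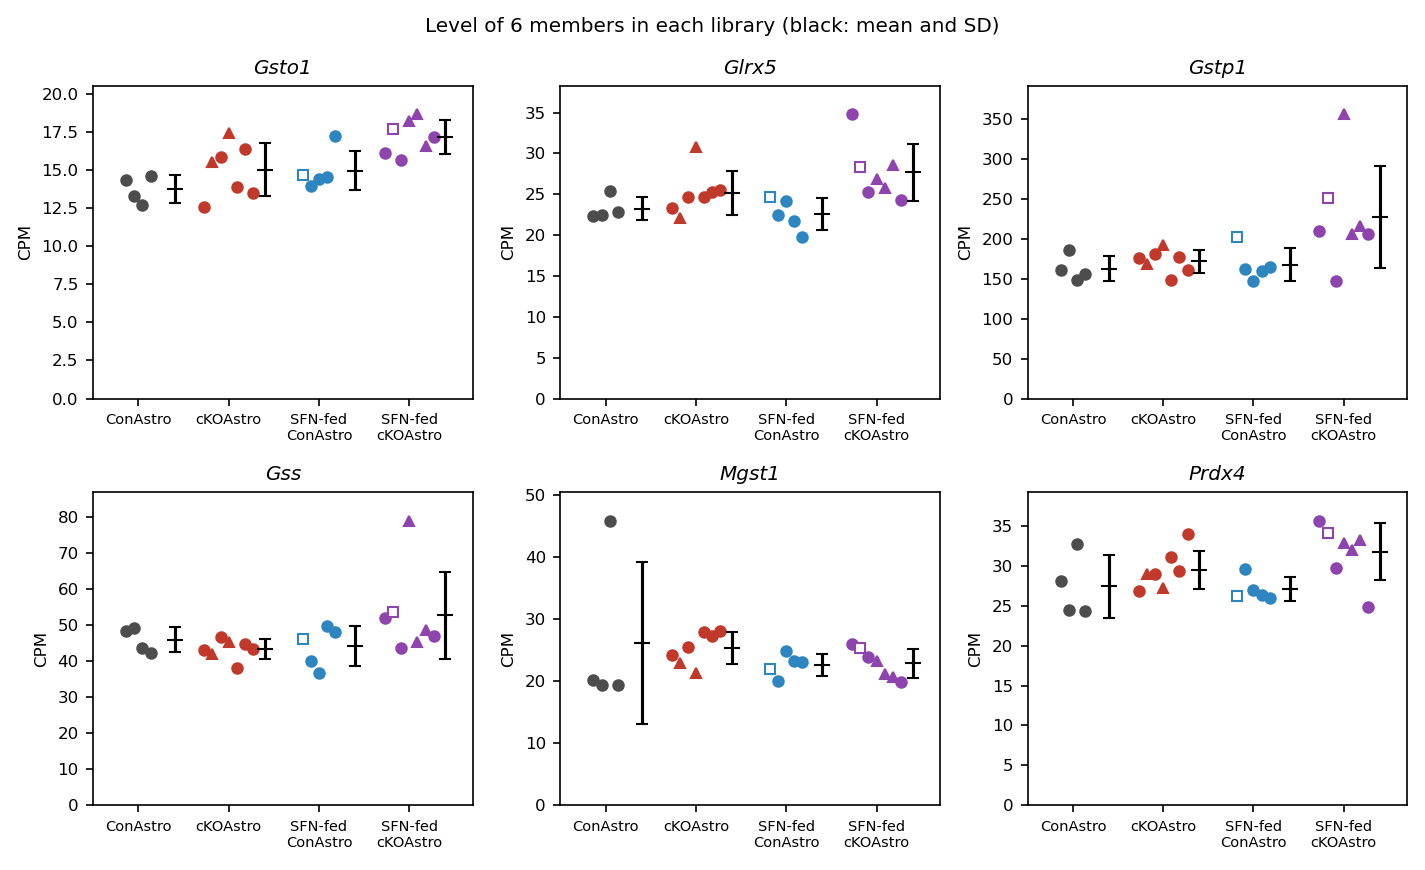
CPM of 6 members in each of the 23 libraries by group. Circles are libraries with a numbered name, triangles those with an Astro name, open squares the 2 libraries that go against their label, and black bars the mean and SD; Gstp1 and Gss each have 1 SFN-fed cKOAstro library, replicate 4, far above the rest.

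**Figure D3:**
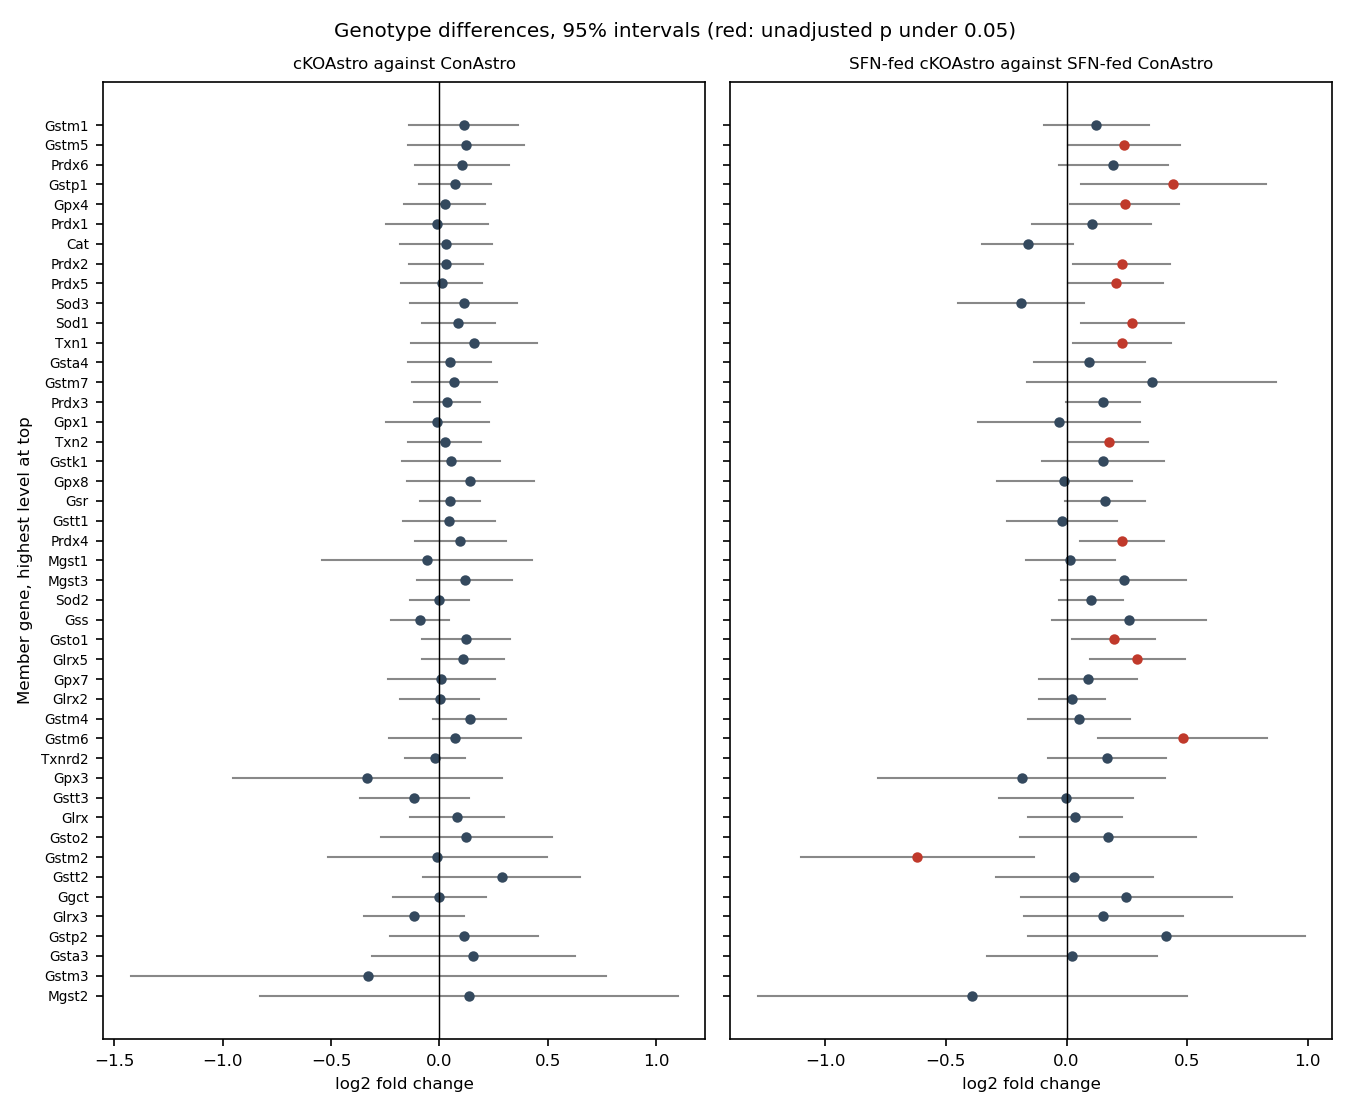
Log2 fold change (points) and 95% interval (lines) of each member tested, for cKOAstro against ConAstro (left) and SFN-fed cKOAstro against SFN-fed ConAstro (right). Red points have an unadjusted p under 0.05: 0 on the left and 13 on the right, of which 12 are above 0.

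No difference with the SFN diet was detectable in mice without Cre. The groups compared share no start of a library name, so name and diet cannot be told apart here. SFN-fed ConAstro and ConAstro differed in 0 of 44 members at an adjusted p of 0.05 (0% of 16509 genes) and in 1 at an unadjusted p of 0.05 (6.54% of genes), with a median log2 fold change of -0.01, and -0.03 without ConAstro replicate 1. DESeq2 and limma-voom called no member. Without the library that goes against its label, 1 of 43 members was under 0.05, Prdx5, against 8.41% of genes. The 1 member in all libraries was Gstm2, at 0.926, 2.18, 1.71 and 1.57 CPM in ConAstro and at 2.71, 2.80, 2.35, 2.33 and 1.71 in SFN-fed ConAstro. These ranges overlapped, and the log2 fold change was 0.57 ± 0.24 (edgeR adjusted p = 0.762). It was 0.38 without ConAstro replicate 1, and 0.52, no longer under an unadjusted p of 0.05, without the discordant library.

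Prdx2, a cytosolic peroxiredoxin, stood at 143, 136, 143 and 141 CPM against 132, 127, 135, 144 and 129, a log2 fold change of -0.09 ± 0.05 with a 95% interval of -0.19 to 0.02. Gstt3, of the theta class, differed by -0.25 ± 0.15 and Cat by 0.14 ± 0.08 on the log2 scale. Without SFN-fed ConAstro replicate 5 the value of Gstt3 was -0.16, and without ConAstro replicate 3 that of Cat was 0.06. Without the discordant library they were -0.24 and 0.18. Of the 44 intervals, 42 lay within 2-fold and 38 within 1.5-fold, with Gstm2 and Mgst2 outside the wider bound.

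In mice with the deletion, SFN-fed cKOAstro and cKOAstro likewise differed in 0 of 45 members at an adjusted p of 0.05 (0% of 16903 genes). At an unadjusted p of 0.05, 4 members were higher, against 5.38% of genes, none was lower (5.50% of genes), and the median log2 fold change was 0.10, against 0.01. Without SFN-fed cKOAstro replicate 1 the median was 0.05. These 4 were Gstp1, Gss, Gsto1 and Gsr. DESeq2 and limma-voom called no member. Without SFN-fed cKOAstro replicate 2, the discordant library in this comparison, 2 members were under 0.05, Gstp1 at 0.38 and Gss at 0.29. This stood against 3.04% of genes higher, with Gsto1 at 0.19 and Gsr at 0.14. With numbered libraries alone no member was under 0.05, and the share of all genes was not counted.

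Gstp1 (chr19:4035407-4037985) stood at 148 to 193 CPM (median 176) in cKOAstro and at 147 to 356 (median 209.5) in SFN-fed cKOAstro. The groups overlapped, and the log2 fold change was 0.41 ± 0.15 (edgeR adjusted p = 0.459). Its highest library, replicate 4, is the one with the highest oligodendrocyte sum, 57490 CPM against 22226 to 35735 elsewhere. Without it the log2 fold change was 0.26. Gss (chr2:155563181-155592810) stood at 38.0 to 46.5 CPM (median 43.4) and at 43.5 to 78.9 (median 48.6), with the highest value again in replicate 4. Its log2 fold change was 0.29 ± 0.12, and 0.16 without that library. The part of oligodendrocyte RNA in either result was not tested.

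Gsto1 (chr19:47854970-47864790) had log2 fold changes of 0.15 to 0.25 with any single library left out. It stood at 12.6 to 17.4 CPM (median 15.6) in cKOAstro and at 15.7 to 18.7 (median 17.2) in SFN-fed cKOAstro, a log2 fold change of 0.20 ± 0.08. Gsr, glutathione reductase, stood at 37.5 to 43.9 CPM (median 41.1) and at 37.2 to 50.3 (median 45.1), a log2 fold change of 0.16 ± 0.07.

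**Figure D4:**
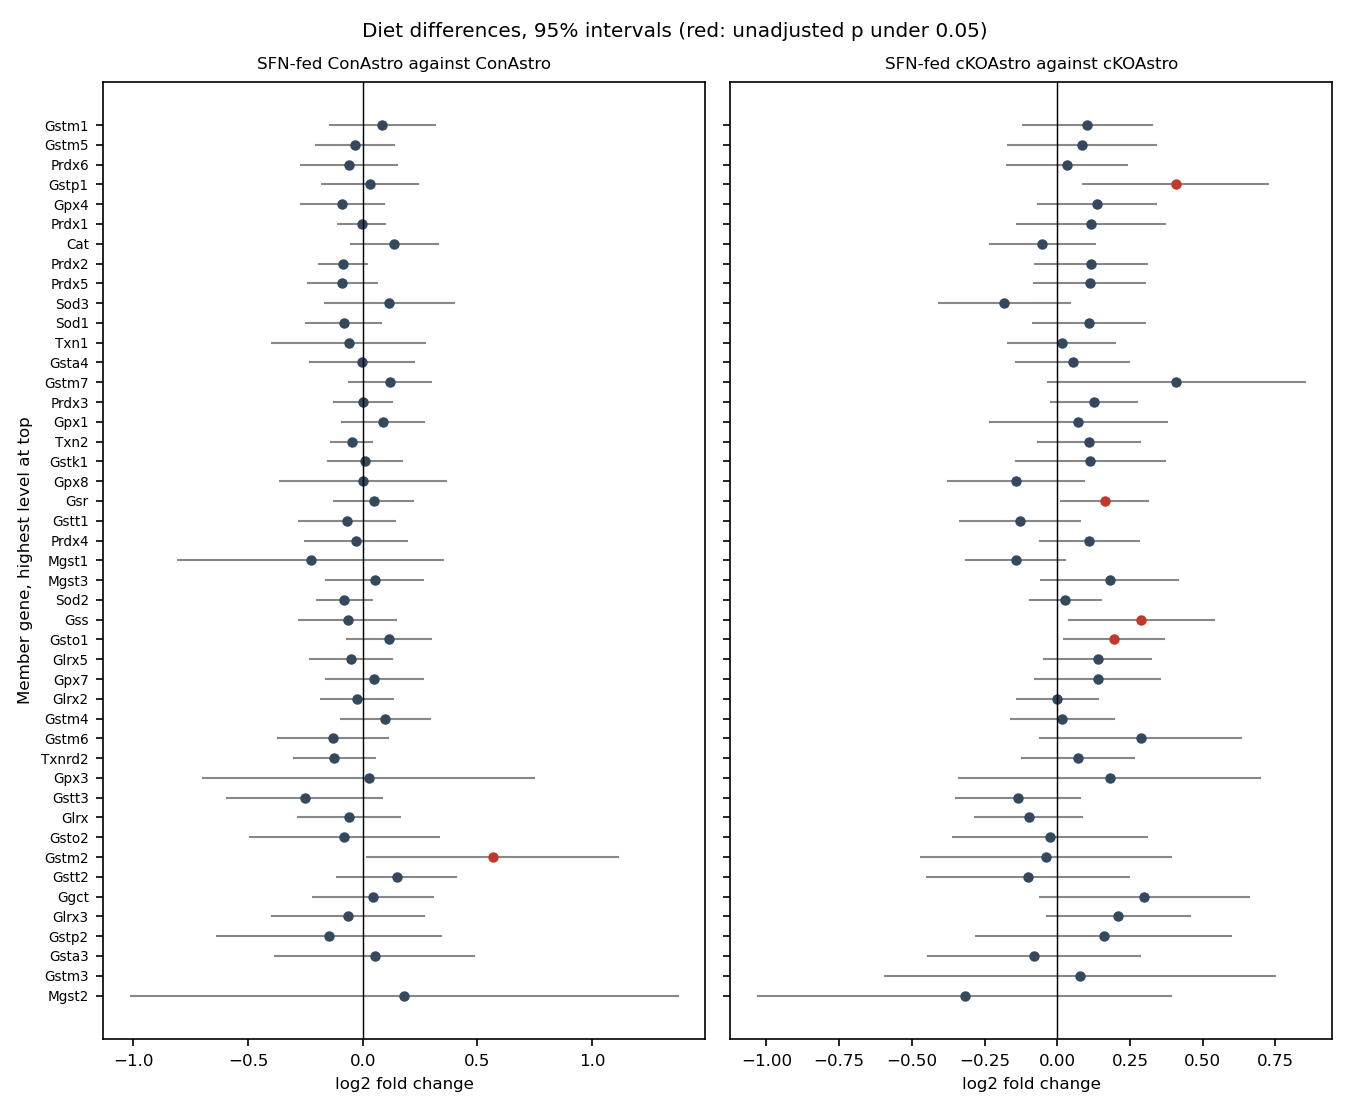
Log2 fold change (points) and 95% interval (lines) of each member tested, for SFN-fed against control-diet mice without Cre (left) and with it (right). Red points have an unadjusted p under 0.05: Gstm2 on the left, and Gstp1, Gss, Gsto1 and Gsr on the right.

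Against ConAstro, SFN-fed cKOAstro had 0 of 44 members at an adjusted p of 0.05 (0% of 16753 genes) and 4 at an unadjusted p of 0.05, all higher (4.01% of genes). Gsto1 stood at 15.7 to 18.7 CPM (median 17.2) against 14.4, 13.3, 12.7 and 14.7 in ConAstro. It was higher in 7 of 7 libraries and the only one of the 44 whose groups did not overlap (1.00% of genes, higher), with a log2 fold change of 0.30 ± 0.08 (edgeR adjusted p = 0.557). By limma-voom with sample quality weights Gsto1 was called (3.92% of genes were), and by DESeq2 no member was. The others were Glrx5 at 0.24 ± 0.10, Gstp1 at 0.47 ± 0.20 and Gsr at 0.20 ± 0.08. Without the discordant SFN-fed cKOAstro replicate 2, 3 members were under 0.05, all higher, against 2.90% of genes. They were Gsto1 at 0.31, Glrx5 at 0.24 and Gstp1 at 0.46, with Gsr at 0.19. This comparison shares its ConAstro libraries with those above. All ConAstro libraries have names that start with 143, as do SFN-fed cKOAstro replicates 1, 2 and 7 but not the others. The name series and the group therefore cannot be fully told apart.

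Whether the genotype difference depended on diet was tested as an interaction over all 4 groups. It was called in 0 of 45 members at an adjusted p of 0.05 (0% of 17302 genes) and in 0 at an unadjusted p of 0.05 (7.32% of genes). The lowest p belonged to Gss, with a log2 interaction of 0.34 ± 0.17 and a 95% interval of -0.002 to 0.69 (edgeR adjusted p = 0.674). Gstm6 followed at 0.41 ± 0.22, Gstm2 at -0.61 ± 0.33 and Gstp1 at 0.36 ± 0.20. Without SFN-fed cKOAstro replicate 4, Gss and Gstp1 were each at 0.22. Intervals of 41 members lay within 2-fold and of 31 within 1.5-fold. Without the 2 discordant libraries 0 members were under 0.05, against 8.32% of genes, with Gss at 0.36, Gstm6 at 0.36, Gstm2 at -0.50 and Gstp1 at 0.42. DESeq2 and limma-voom called no member.

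The 26 other genes of glutathione synthesis, NADPH supply and the NRF2 response gave no call by edgeR in any of the 6 comparisons. The values in this paragraph are from all libraries, with the 2 discordant ones in. For these genes, values without them and calls by DESeq2 and limma-voom are not given here. In SFN-fed cKOAstro against SFN-fed ConAstro, 3 were higher (11.4% of all genes) and 1 lower (8.89%) at an unadjusted p of 0.05, led by Idh2, the mitochondrial NADP-dependent isocitrate dehydrogenase (log2 fold change 0.39 ± 0.09, edgeR adjusted p = 0.195), and Hagh, a glyoxalase (0.27 ± 0.08). In SFN-fed ConAstro against ConAstro 1 was higher, Bach1, a repressor at the antioxidant response element (0.15 ± 0.06), beside 6.54% of all genes in either direction and with a median over the list of 0.01. In SFN-fed cKOAstro against cKOAstro, 2 were higher (5.38% of all genes) and 1 lower (5.50%), the last being Gclc, the catalytic subunit of the rate-limiting enzyme of glutathione synthesis (-0.18 ± 0.07). Of 20 tested genes of glutathione turnover and related transferases, none was called either. Chac1, which breaks down glutathione, had the lowest p of both lists in cKOAstro against ConAstro (0.79 ± 0.28, edgeR adjusted p = 0.981). Its level was low, at a mean of 0.390 CPM in ConAstro and 0.679 CPM in cKOAstro.

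**Figure D5:**
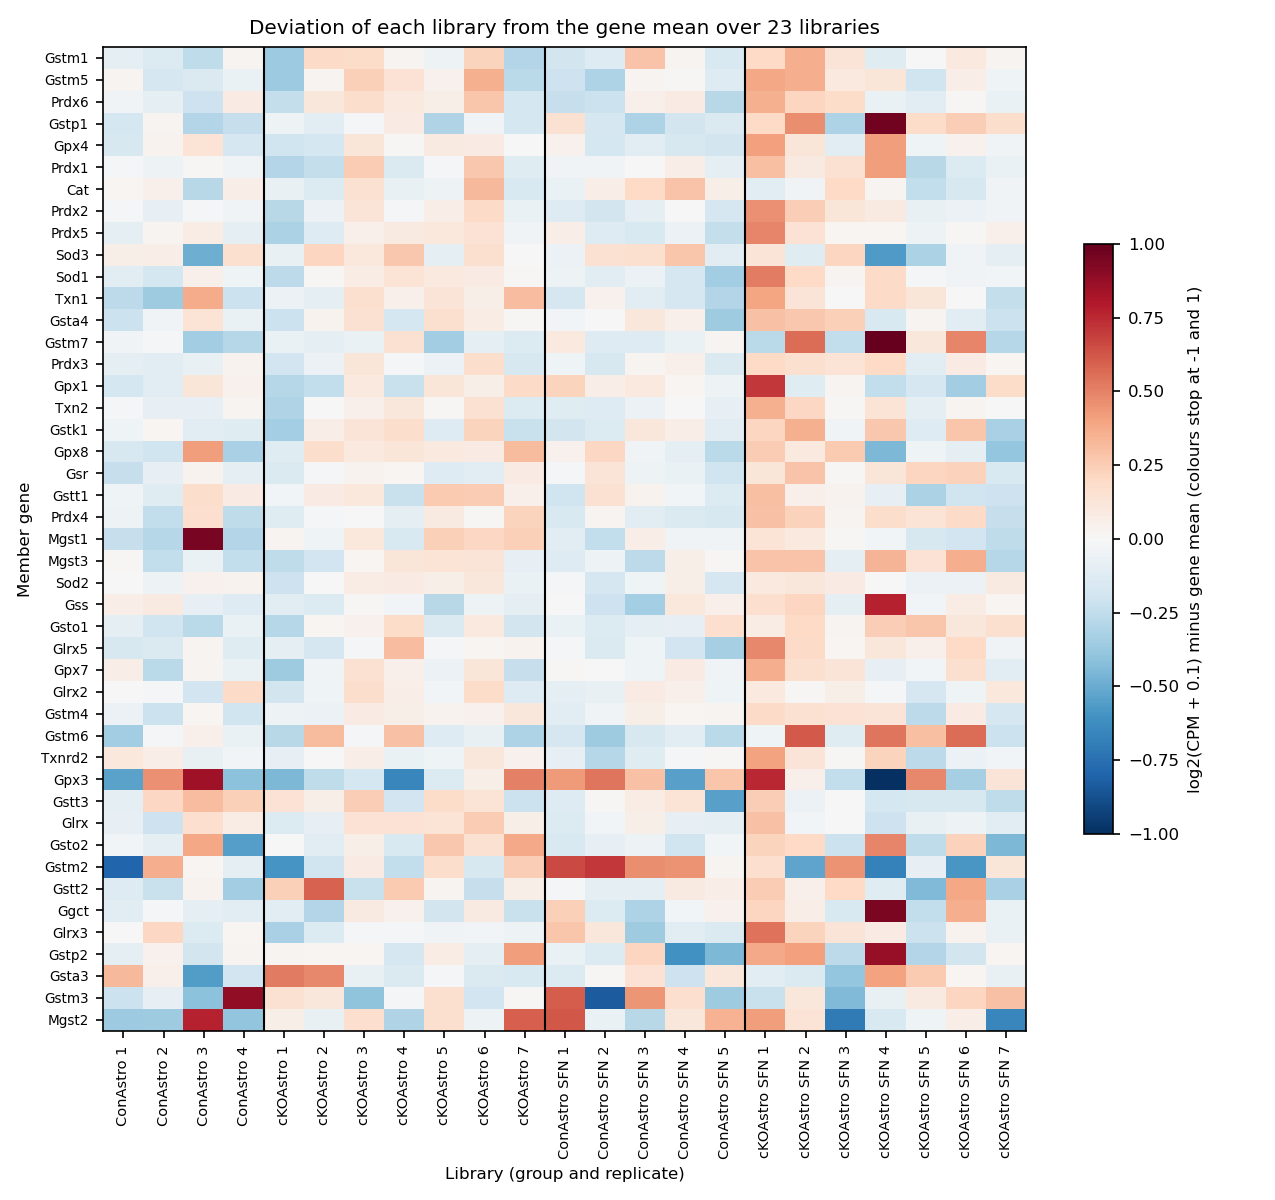
Deviation of log2(CPM + 0.1) from each gene's mean over 23 libraries, for the 45 members past the filter (rows) in each library (columns, lines between groups). Among SFN-fed cKOAstro libraries, replicate 1 was the highest of all 23 for 17 members and replicate 4 for 9, Gstp1, Gstm7, Gss and Ggct among them. The same count over all genes was not made.

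High values of the members were gathered in few libraries. How many of all genes had their highest or lowest value in the same libraries was not counted. SFN-fed cKOAstro replicate 1 held the highest CPM of 17 of the 45 members, among them Gstm5, Prdx2, Prdx5, Prdx6, Sod1, Txn1 and Glrx5. Replicate 4 held the highest of 9, and cKOAstro replicate 1 the lowest of 12. The summed CPM of the members was 3502 ± 93.6 (SD) in ConAstro and 3506 ± 219.9 in its SFN-fed counterpart, and 3691 ± 366 in cKOAstro and 3919 ± 363 with SFN.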

How the data were processed

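Per the labels and the study's methods, poly(A)-selected RNA was sequenced in paired ends, and the authors aligned reads to mm10 with STAR after FastQC and deposited raw counts per gene symbol, 1 column per library. The version, the annotation and the strand setting are not given in the sources used here. Counts were tested in R 4.3.3 with edgeR 4.0.16 (quasi-likelihood test, TMM, filterByExpr with a minimum count of 10 and a minimum total of 15), each pair of groups on its own and the interaction on 4 groups, with Benjamini-Hochberg adjustment over all genes. The alternatives used DESeq2 1.42.0 and limma 3.58.1. Exon lengths, positions and shared 100-base windows come from GENCODE M21 (GRCm38, also called mm10), in which all 51 symbols were found. CPM are TMM-normalised over 23 libraries and given with the SD. SE and 95% intervals come from the moderated F. Genes named are the highest per kb in each family and the 4 with the lowest p in each comparison. Sod1 and Prdx5 were added after their values were seen. Members and lists were chosen with earlier results of these data known. No pair of libraries of the same group agreed within counting noise (lowest chi-square per degree of freedom 44.2), and each was counted as 1 replicate. Pairs from different groups were not checked in this way. The script was tested on simulated data.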

Additional observations from a re-analysis of the deposited data

Results flagged for a closer look

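The CPM of 20 named members in 4 groups gave 80 sets of libraries, of which 8 held a library set apart from the rest of its group by Dixon's criterion. Chance sets apart about 1 in 20 such sets. In ConAstro replicate 3, Mgst1 stood at 45.8 CPM (19.3 to 20.1 in the others), Txn1 at 53.4 (32.2 to 35.5) and Cat at 119 (147 to 151). Glrx5 stood at 30.7 CPM in cKOAstro replicate 4 (22.1 to 25.5 in the others) and at 34.8 in SFN-fed cKOAstro replicate 1 (24.3 to 28.6). Gss stood at 78.9 CPM in SFN-fed cKOAstro replicate 4 (43.5 to 53.6 in the others). In SFN-fed ConAstro, Gsto1 stood at 17.2 CPM in replicate 5 (14.0 to 14.7 in the others) and Prdx4 at 29.7 in replicate 2 (26.1 to 27.1).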

How the results depend on the processing

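Over the alternatives run, no named member reversed its direction. No member was called in any comparison except under limma-voom with sample quality weights, which called 8 in SFN-fed cKOAstro against SFN-fed ConAstro (Glrx5, Gsr, Gstm6, Gstp1, Mgst3, Prdx4 and Sod1 higher, Gstm2 lower, beside 26.4% of all genes) and 1, Gsto1, in SFN-fed cKOAstro against ConAstro (3.92% of genes). The cause was not tested. Leaving out each library in turn called 0 members in every comparison. Over all genes, the count called in SFN-fed cKOAstro against SFN-fed ConAstro was 0, but 4398 by limma-voom, 250 by DESeq2, 3 with 4 groups in 1 fit, 2 without the 2 discordant libraries and 701 without SFN-fed cKOAstro replicate 3. In SFN-fed cKOAstro against ConAstro it was 0, but 656 by limma-voom, 8 by DESeq2 and 2 without the discordant library. DESeq2 called 8 genes in cKOAstro against ConAstro (4 by edgeR, 0 with 4 groups in 1 fit, 1 with the replicate block), 24 in SFN-fed ConAstro against ConAstro, 15 in SFN-fed cKOAstro against cKOAstro and 3 for the interaction, each 0 by edgeR. The counts below of members at an unadjusted p under 0.05 have no share of all genes beside them. That share was not counted in these fits. Members at an unadjusted p under 0.05 in SFN-fed cKOAstro against SFN-fed ConAstro fell from 13 to 7 without SFN-fed ConAstro replicate 5 and to 8 without its replicate 2 or SFN-fed cKOAstro replicate 2. In SFN-fed cKOAstro against cKOAstro they ran from 1 without cKOAstro replicate 5 to 8 without SFN-fed cKOAstro replicate 7, and in SFN-fed cKOAstro against ConAstro from 2 without ConAstro replicate 2 to 9 without SFN-fed cKOAstro replicate 7. In SFN-fed ConAstro against ConAstro the count of 1 became 0 without ConAstro replicate 1 or 4 or SFN-fed ConAstro replicate 2 or 3. For the interaction they reached 5 without SFN-fed cKOAstro replicate 3. Replicate numbers did not pair the libraries (29 same-number pairs, median r of -0.0026, against -0.020 for 166 others), and with the number as a replicate block 0 members were called in each comparison, with 0, 13, 1, 4, 2 and 0 at an unadjusted p under 0.05.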
